A study of Mus musculus with 16 samples.

Results

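Open chromatin that hardly differed between 8 inbred mouse strains was examined in pancreatic islets. ATAC-seq, in which a transposase cuts accessible DNA and leaves sequencing adapters there, had given a list of peaks for each of 16 islet samples. Peaks that overlapped or touched were merged over the 16 lists, which gave 347712 regions on chromosomes 1 to 19, and 40940 of them held a peak in all 16 samples. In each of these shared regions, the log2 of the summit signal plus 1 was centred on the median of its sample and averaged over the pair of samples of a strain. The 1000 regions with the smallest range of the 8 strain means were kept, 2.44% of the shared regions. They are called the stable regions or members here. Since the strain means chose them, their strain values are a description and carry no test.

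The strains were 129 (129S1_SvImJ), AJ (A_J), B6 (C57BL/6J), CAST (CAST_EiJ), NOD (NOD_ShiLtJ), NZO (NZO_HlLtJ), PWK (PWK_PhJ) and WSB (WSB_EiJ), the founders of an outbred mouse population used for genetic mapping. Each strain gave 1 female and 1 male sample of 50 islets, so the female and the male are the only replicates of a strain and also differ in sex. The labels name no treatment and no age, and do not say how many mice gave the islets. Islets are clusters of endocrine cells, mostly insulin-secreting beta cells, and a bulk sample cannot tell a region open in fewer cells from a region less open in each cell.

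Accessible regions are broadly of 2 kinds. Promoters lie at the start sites of genes, often in CpG islands, which are stretches rich in G, C and the CG dinucleotide that stay free of methylation, and promoters of genes needed by every cell are open in most tissues. Distal elements such as enhancers lie in introns or between genes, carry sites for factors specific to a cell type or to a stimulus, and are the regions whose accessibility most often differs between tissues.

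The summit signal is a whole number that was not scaled to sequencing depth, and its median over the shared regions was lowest in the PWK male (32) and highest in the CAST male (136). Values are therefore given as a scaled signal, the summit signal divided by that median of its own sample, so that 1 is the typical shared region. Whole chromosomes stood apart in some libraries. The median centred log2 signal of a sample ran from -0.46 (PWK male) to 0.68 (NZO male) on chromosome 11, from -0.40 (CAST female) to 0.22 (B6 male) on chromosome 18 and from -0.64 (B6 male) to 0.50 (NZO male) on chromosome 19, against -0.16 to 0.02 on chromosome 1. These offsets enter the strain means, so several results below are also given with the signal centred within each chromosome or within bins of 10 Mb, 2 alternatives added after the data were seen.

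The tissue was checked by its markers. Of 11 islet endocrine genes, 9 had a peak within 1000 bases of a start site in all 16 samples, the exceptions being Sst (1 sample) and Ppy (0 samples). Of 5 acinar genes none had a peak there in more than 2 samples, and 3 endothelial genes had one in 1 to 6 samples. The highest counts among 4 duct, 4 leukocyte and 3 stellate genes were those of Cftr (16 samples), Ptprc (15 samples) and Col1a2 (16 samples), and at least 1 gene of the leukocyte and of the stellate list had no peak in any sample.

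The summits of the most stable regions are shown as sequence so that promoters and distal elements can be compared by eye. They are 11 of the 12 regions with the smallest range, each as up to 200 bases around the median summit, from the plus strand of GRCm38 (the mm10 build of the files) as given by RefSeq. Capitals mark matches on either strand to any of 19 short motifs that were searched, and stretches annotated as untranslated were cut away, which left too little of the Cdc14b promoter to print. The promoter windows lie at chr2:14073519-14073718 (Stam), chr1:126830044-126830243 (Nckap5), chr12:51377371-51377512 (Scfd1), chr6:124492996-124493112 (C1rl) and chr7:12818863-12818991 (Zfp329).
Stam promoter: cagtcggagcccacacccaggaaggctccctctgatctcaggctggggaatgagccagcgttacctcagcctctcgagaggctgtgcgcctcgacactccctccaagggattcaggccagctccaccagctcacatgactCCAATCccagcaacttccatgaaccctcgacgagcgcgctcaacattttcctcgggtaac
Nckap5 promoter: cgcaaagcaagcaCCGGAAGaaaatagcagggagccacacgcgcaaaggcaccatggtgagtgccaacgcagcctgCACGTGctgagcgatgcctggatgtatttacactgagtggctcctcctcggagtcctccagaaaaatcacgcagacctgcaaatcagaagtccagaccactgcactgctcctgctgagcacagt
Scfd1 promoter: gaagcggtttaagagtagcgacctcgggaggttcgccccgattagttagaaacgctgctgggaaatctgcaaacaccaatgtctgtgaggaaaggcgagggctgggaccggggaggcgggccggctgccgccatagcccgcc
C1rl promoter: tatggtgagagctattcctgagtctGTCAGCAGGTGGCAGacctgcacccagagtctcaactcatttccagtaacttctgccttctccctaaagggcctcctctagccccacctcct
Zfp329 promoter: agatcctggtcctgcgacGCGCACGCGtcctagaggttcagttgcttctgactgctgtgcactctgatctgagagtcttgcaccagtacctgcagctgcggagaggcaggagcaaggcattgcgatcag

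In the Stam window the capitals are an NFY match (CCAATC), and in the Nckap5 window they are an ETS match (CCGGAAG) followed by an E-box of the USF and MYC type (CACGTG). The capitals of the C1rl window join a MAF match (TGCTGAC, on the minus strand) to an overlapping CTCF match (AGGNGGCAG). The Zfp329 stretch holds an NRF1 match (GCGCANGCG), and the printed Scfd1 stretch holds none of the 19. The full windows of 200 bases held 17 CG dinucleotides at Scfd1, 16 at Zfp329, 12 at Cdc14b, 10 at Stam, 9 at Nckap5 and 0 at C1rl. The windows of the regions over 3000 bases from a start site lie at chr6:134144414-134144613 (Etv6 intron), chr12:55626805-55627004 (Ralgapa1 intron), chr2:105738956-105739155 (Elp4 intron), chr7:44655608-44655807 (Myh14 exon), chr9:21204808-21205007 (Pde4a exon) and chr1:151353007-151353206 (Ivns1abp exon).
Etv6 intron: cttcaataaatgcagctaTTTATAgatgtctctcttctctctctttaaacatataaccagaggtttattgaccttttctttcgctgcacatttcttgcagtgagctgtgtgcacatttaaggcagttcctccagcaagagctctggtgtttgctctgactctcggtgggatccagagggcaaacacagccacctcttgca
Ralgapa1 intron: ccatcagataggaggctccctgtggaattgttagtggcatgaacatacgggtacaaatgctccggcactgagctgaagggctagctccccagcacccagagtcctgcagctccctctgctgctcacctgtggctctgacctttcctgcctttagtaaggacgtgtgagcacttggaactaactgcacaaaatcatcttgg
Elp4 intron: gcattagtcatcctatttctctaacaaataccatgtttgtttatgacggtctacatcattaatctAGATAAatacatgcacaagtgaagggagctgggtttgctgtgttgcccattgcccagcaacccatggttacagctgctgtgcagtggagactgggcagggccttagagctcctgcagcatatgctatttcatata
Myh14 exon: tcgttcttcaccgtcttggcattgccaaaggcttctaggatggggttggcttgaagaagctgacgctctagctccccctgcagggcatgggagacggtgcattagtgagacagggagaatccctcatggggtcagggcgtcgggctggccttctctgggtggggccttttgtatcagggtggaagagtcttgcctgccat
Pde4a exon: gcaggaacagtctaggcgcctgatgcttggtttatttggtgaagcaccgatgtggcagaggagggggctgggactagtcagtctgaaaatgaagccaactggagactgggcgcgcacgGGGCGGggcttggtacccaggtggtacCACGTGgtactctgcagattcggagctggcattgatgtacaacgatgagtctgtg
Ivns1abp exon: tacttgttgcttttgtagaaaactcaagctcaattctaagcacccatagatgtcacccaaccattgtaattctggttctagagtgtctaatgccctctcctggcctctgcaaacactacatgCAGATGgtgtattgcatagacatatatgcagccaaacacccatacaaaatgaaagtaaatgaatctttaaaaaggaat

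Here the capitals are a TATA box match (TATAAA, minus strand) in the Etv6 window, a match to the site of GATA factors (AGATAA) in the Elp4 window, a GC box (GGGCGG) and a CACGTG E-box in the Pde4a window, and an E-box of the NEUROD type (CAGATG) in the Ivns1abp window. The distal windows held between 0 (Ivns1abp) and 9 (Pde4a) CG dinucleotides.

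The 12 regions with the smallest range were 6 promoters, 3 intronic and 3 exonic regions, and their strain means spanned 1.12-fold to 1.16-fold. The smallest range of all, 0.17 on the log2 scale, belonged to an intron of Etv6, which encodes a transcriptional repressor of the ETS family (chr6:134142079-134145021). Its scaled signal had a lowest value of 0.494, a median of 0.639 and a highest of 0.786 over the 16 samples. Its lowest and its highest sample were the male and the female of B6, so their difference cancelled in the strain mean. At the promoter of Stam, an adaptor of endosomal sorting (chr2:14072978-14075177), the values were 3.26 at the lowest, 4.23 at the median and 4.78 at the highest. There too the extremes were the B6 female (lowest) and the B6 male (highest).

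The intron of Ralgapa1, a subunit of a GTPase-activating complex for Ral proteins (chr12:55626699-55627152), lay between 0.774 and 1.41 with a median of 1.03. The promoter of Nckap5 (chr1:126829884-126831083) lay between 0.568 and 0.826 with a median of 0.663. The intron of Elp4 (chr2:105738304-105740599) was far more accessible, between 4.93 and 6.65 with a median of 5.96. Elp4 encodes a subunit of the Elongator complex, and its introns are known to hold distant regulatory elements of the neighbouring Pax6, a transcription factor of islets and the eye. The promoter of Scfd1, a protein of transport between the endoplasmic reticulum and the Golgi (chr12:51376752-51378172), had the highest signal of the 12, between 6.49 and 8.71 with a median of 7.47.

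The promoter of Cdc14b, a phosphatase (chr13:64247855-64249555), lay between 1.31 and 2.04 with a median of 1.65. The exonic regions were weak, as were the Etv6 intron and the Nckap5 promoter. A region of 200 bases at an exon of Myh14, a non-muscle myosin heavy chain (chr7:44655600-44655799), lay between 0.280 and 0.523, where the lowest value was a summit signal of 12. At the exon of Pde4a, a phosphodiesterase of cyclic AMP (chr9:21204369-21205276), the values ran from 0.391 in the 129 male to 0.983 in the 129 female. An exonic region of Ivns1abp (chr1:151352917-151354481) ran from 0.50 (PWK female) to 0.969 (AJ female). In these exonic regions a small range of strain means stood beside a wide spread of single samples.

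The promoter of C1rl, which encodes a serine protease related to complement C1r (chr6:124490779-124493912), had its lowest value in the PWK female (2.27) and its highest in the PWK male (3.72), around a median of 3.16. The promoter of the zinc finger gene Zfp329 (chr7:12817952-12819401) was the steadiest promoter of the 12 between the sexes, with values from 3.63 to 4.62, a median of 4.21 and a mean absolute female-male difference of 0.11 on the log2 scale. In the plot of these 12 regions by sample, the lines that join a female and a male are long at the Pde4a and Ivns1abp exons and short at the Zfp329 promoter.

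**Figure D1:**
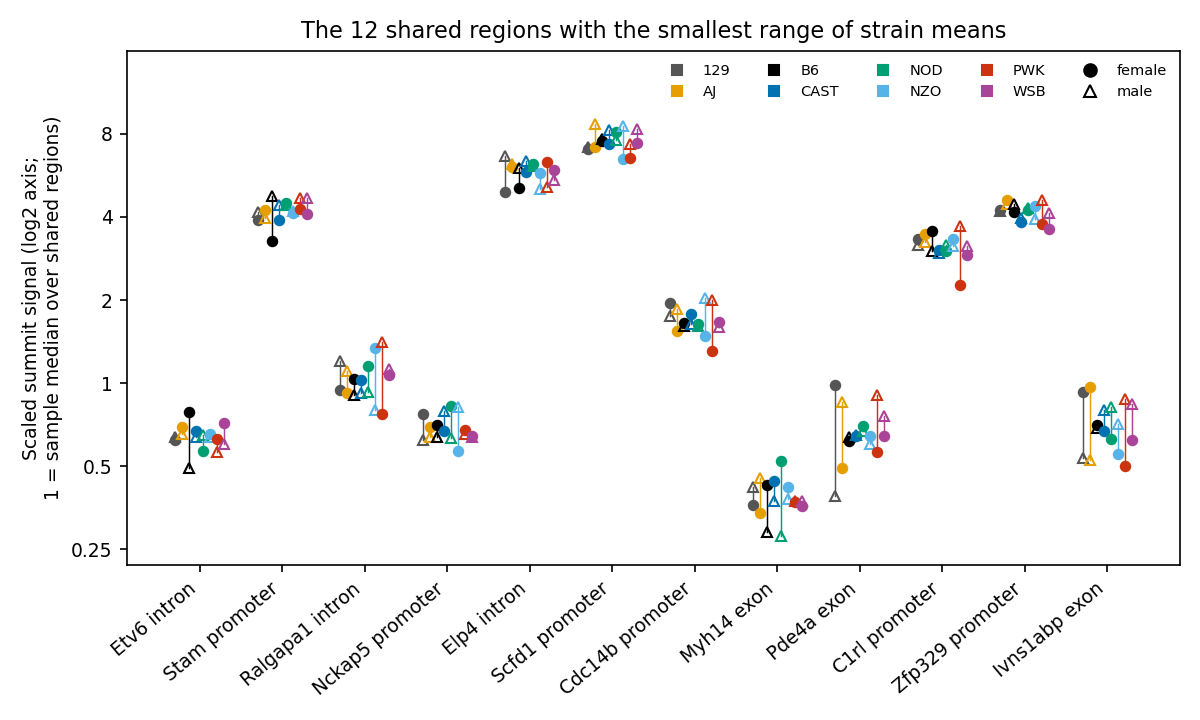
Scaled summit signal (log2 axis, 1 is the median shared region of a sample) in the 12 regions with the smallest range of strain means, ordered by that range. Each strain has a colour, filled circles are females and open triangles males, and a line joins the pair; the Scfd1 promoter is highest with values between 6.49 and 8.71, and the Pde4a exon runs from 0.391 to 0.983.

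Over the 1000 members the range of strain means ran from 0.17 to 0.47 with a median of 0.41 on the log2 scale, a 1.33-fold difference between the highest and the lowest strain. The median over all shared regions was 1.11, or 2.16-fold, and the 1000 regions at the other end of the order, called the most variable regions here, had ranges from 2.73 to 6.68. The limit fell within a dense part of the order. The 3 members just inside it, a region between genes near Lbh and the promoters of Slc35a1 and Ccdc149, and the 3 regions just outside it, the promoters of Uri1 and Vav1 and an intron of Klf12, all had a range of 0.47. By description, the 129 strain was highest in 266 members and WSB lowest in 237, the largest counts in each direction, and WSB was highest in 52. Over all shared regions 129 was highest in 15.7% and WSB lowest in 13.1%, and the strain most often lowest was CAST, in 20.4%.

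High signal and membership went together. The scaled signal of a member had a median of 2.70 against 1.01 in the other shared regions, and members were wider, with a median width of 1700.5 against 1135 bases. When the shared regions were split into quintiles by mean scaled signal, members made up 1.07%, 1.12%, 1.56%, 1.76% and 6.69% of the quintiles from weakest to strongest, and the strongest quintile held 548 of the 1000. Members were still found among weak regions, the weakest at a mean scaled signal of 0.284. The main comparisons below are therefore also given within quintiles.

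**Figure D2:**
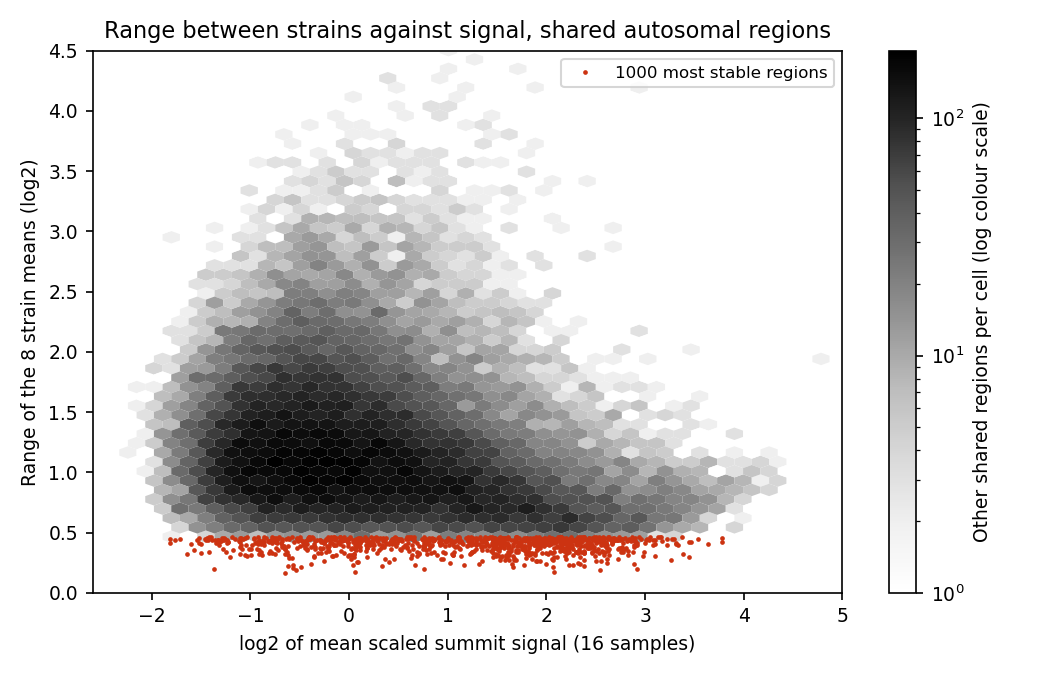
Range of the 8 strain means (vertical, log2) against the log2 of the mean scaled summit signal over 16 samples (horizontal) for the shared autosomal regions. Red points are the 1000 members, all under 0.47, and grey cells count the other regions; 52 regions, none a member, lie beyond the axes.

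The difference between the sexes within a strain was not used by the rule. It was smaller in the stable regions than in the other shared regions in 8 of 8 strains. The median absolute difference in members was 0.12 in WSB, 0.14 in CAST, 0.16 in NOD, 0.17 in AJ, 0.21 in 129, 0.23 in B6, 0.26 in NZO and 0.30 in PWK on the log2 scale. In the other shared regions it was 0.17 in WSB, 0.20 in CAST, 0.21 in NOD, 0.27 in AJ, 0.37 in 129, 0.36 in B6, 0.47 in NZO and 0.39 in PWK. The mean of the 8 strain medians was 0.20 ± 0.06 (SD, n = 8 strains) in members and 0.31 ± 0.11 in the other regions. The median in the members of NZO or PWK was still above that in the other regions of WSB or CAST.

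The smaller difference was seen in both kinds of region and at every signal level. Member promoters had medians from 0.11 (WSB) to 0.29 (PWK), and members away from promoters from 0.15 (WSB) to 0.33 (PWK). In the weakest quintile by signal, the median over regions of the mean absolute difference was 0.33 in members and 0.41 in others. In the strongest quintile it was 0.19 in members and 0.25 in others. The member promoters of Tsg101, a subunit of an endosomal sorting complex (0.05), Casp8ap2 (0.07) and Slc44a3 (0.07) had the smallest mean absolute differences. At the Tsg101 promoter the scaled signal ran from 2.98 to 4.09, the highest values being those of the PWK pair.

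The largest differences were in weak regions, near Mir6417 (0.67) and Arrdc3 (0.56) and at the promoter of Zcchc9 (0.57). Near Mir6417 the scaled signal was 0.951 in the NZO female and 0.418 in the NZO male, but 0.387 in the PWK female and 0.875 in the PWK male, so the sexes differed in opposite directions in these strains.

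**Figure D3:**
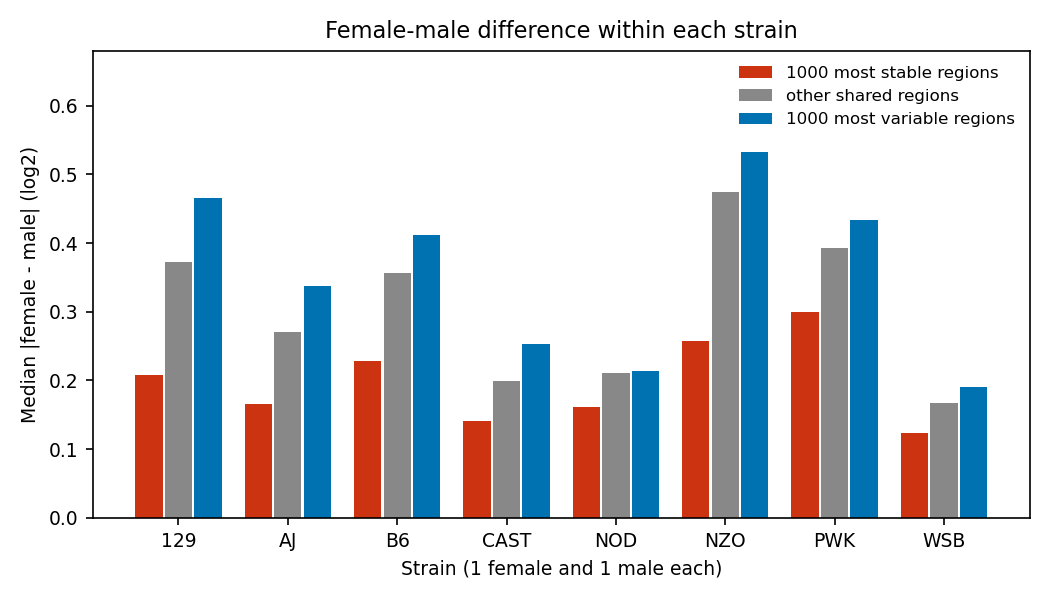
Median absolute difference between the 2 sexes of each strain (log2 scale) in the 1000 members (red), the other shared regions (grey, which include the most variable) and the 1000 most variable regions (blue). Members are lowest in each of the 8 strains, from 0.12 in WSB to 0.30 in PWK.

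Sex itself was tested with limma over all 42427 regions called in all 16 samples, the X chromosome included, with strain in the model. At a Benjamini-Hochberg adjusted p under 0.05, 4 regions were called, 0.00943% of those tested, and 0 were members; all p-values over these samples rest on 1 sample per strain and sex. At an unadjusted p under 0.05 the test called 17 members, 1.7%, against 4.09% of all regions. Of the 17, 13 were higher in males and 4 in females, but the split over all regions called is not given here. The median signed female minus male difference of members was -0.20 in PWK on the log2 scale. In the other strains it lay between -0.08 (NZO) and 0.09 (B6). The smallest unadjusted p of a member, 0.0084 (adjusted p = 1.00), was at an intron of Gm29506, where the female minus male difference was -0.39 ± 0.13 (SE) on the log2 scale. The female minus male difference of 95% of the members lay between -0.26 and 0.20, and that of the other shared regions between -0.32 and 0.31. The strain test of the same fit called 35.0% of all regions and 0 members, which follows from how members were chosen.

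To see whether stability between strains carried over to samples that did not choose it, the rule was run on the 8 females alone and the range over strains was then measured in the 8 males. The 1000 regions so chosen had a median range of 0.46 in the females and of 0.81 ± 0.37 (SD over regions) in the males, where all shared regions had a median of 1.38. Of the 1000, 910 lay below that median. Chosen on males and measured in females, the median was 0.72 against 1.24 for all regions, and 933 of 1000 lay below. The 2 choices shared 182 regions, 18.2% of each, beside the 2.44% of shared regions that each choice took. Most regions of either choice were not members. Of the 1000 chosen on females 381 were members, and of the 1000 chosen on males 405. The carry-over is thus that of the rule and not of the members alone.

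The carry-over was seen at each signal level. In the weakest quintile, the regions chosen on females had a median range of 1.10 in males against 1.48 in the rest, and in the strongest quintile 0.67 against 1.03. The sexes of a strain also largely share the offsets of chromosomes 18 and 19 given above, but less so those of chromosome 11. There the median was 0.18 in the B6 female and -0.16 in the B6 male, and 0.09 and 0.68 in the NZO female and male. With centring within bins of 10 Mb, the median in the males was 0.74 against 1.21 for all regions.

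Members were spread unevenly over the chromosomes. Chromosome 7 held 125, 4.88% of its 2561 shared regions, while chromosome 18 held 10 of 1454, and chromosomes 11 and 19 held 1 each, or 0.0873% and 0.103% of their shared regions. Chromosomes 11, 18 and 19 were those on which the strain medians themselves spread most, by 0.80, 0.55 and 1.03 on the log2 scale, against at most 0.27 on any other autosome. With the signal centred within each chromosome, chromosome 11 held 35 members, chromosome 18 held 38 and chromosome 19 held 31, while 4.8% of the shared regions of chromosome 7 were members. With bins of 10 Mb, chromosome 11 held 84, 7.33% of its shared regions, and chromosome 7 held 77. What causes these offsets was not tested.

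**Figure D4:**
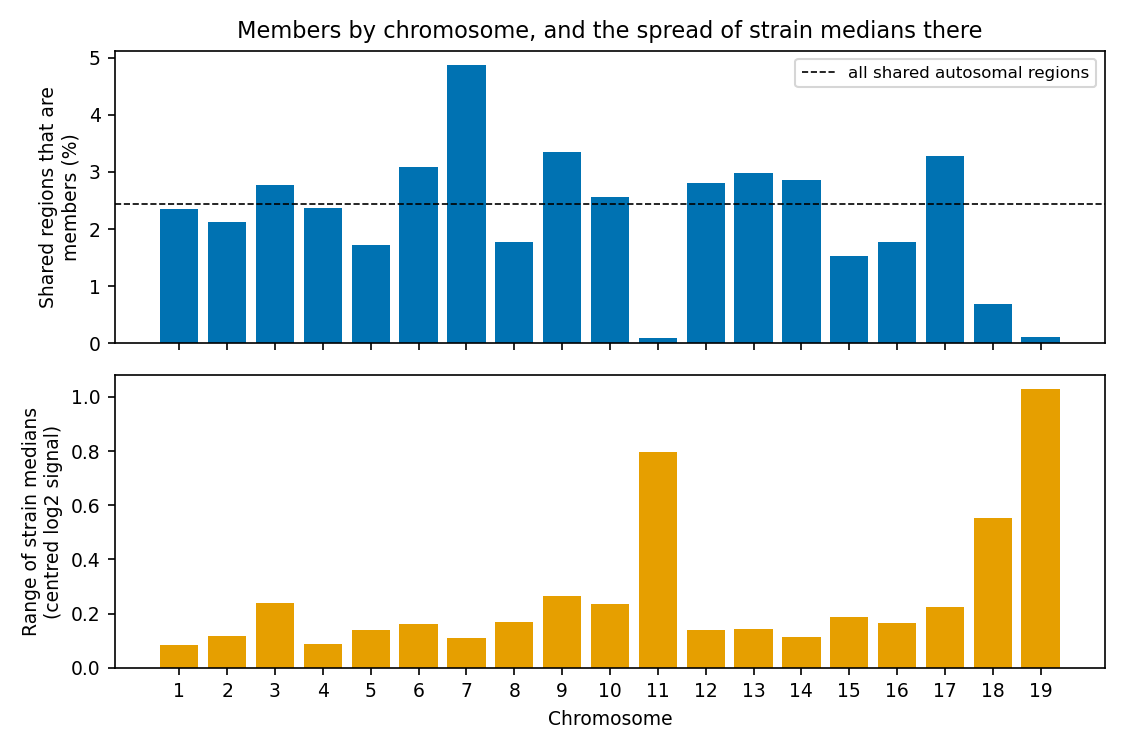
Upper panel, percent of the shared regions of each autosome that are members, with a dashed line at 2.44% for all autosomes. Lower panel, range of the 8 strain medians of the centred log2 signal on that chromosome; members are fewest where it is largest, at 1.03 on chromosome 19 and 0.80 on chromosome 11.

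On chromosome 7 the share of members was higher in promoters and in other regions alike. Of its 1330 shared promoters 97 were members, 7.29%, against 3.89% of shared promoters on all autosomes, and 2.27% of its other regions were members, against 1.44% on all autosomes. The bins of 10 Mb with most members were at 20 to 30 Mb on chromosome 7 (23 of 210 shared regions) and at 40 to 50 Mb (19 of 271). Members were mostly apart from each other, with a median gap of 487115 bases to the next on the chromosome, and 35 of 981 gaps were of at most 10000 bases.

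Most members were promoters. A start site lay within 3000 bases of 652 members, 65.2%, against 40.4% of the other shared regions and 28.6% of the most variable regions. Intronic regions made up 14.9% of members and 27.4% of the others, regions between genes 15.6% and 27.2%, and exonic regions 4.3% and 5.09%. The start site lay inside the region itself in 54.9% of members and 29.2% of the others. Within the strongest quintile by signal the promoter share was 85.6% in members and 68.7% in the others, and within the weakest quintile it was 27.3% and 22.5%, a smaller gap in each than over all regions. Divergent pairs of protein-coding genes were as frequent among member promoters (5.67%) as among the others (5.48%), and among the 286 most variable promoters there were 0. The promoter share was 64.6% with centring within chromosomes and 72.3% within bins of 10 Mb.

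The sequence of members was rich in CpG, which did not hold for regions chosen with no centring. In 300 bases around the summit the median GC content was 55.3% in members and 48.7% in the other shared regions, and the ratio of observed to expected CpG was 0.517 and 0.298. Among promoters the ratio was 0.732 in members, 0.607 in the others and 0.254 in the most variable promoters. A GC content of at least 50% with a ratio of at least 0.6, the usual marks of a CpG island, was found in 62.0% of member promoters and 48.8% of the other promoters, but in 10.5% of the most variable promoters. Away from promoters the same marks were found in 3.45% of members and 2.09% of the others. At matched signal, with promoters and other regions together, the difference was smaller. The ratio was 0.750 against 0.622 in the strongest quintile and 0.174 against 0.218 in the weakest, where the order was turned. Windows covered by repeats over more than 50% of their bases were rarer in members (0.5%) than in the others (2.14%) or the most variable regions (8.7%).

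The 19 motifs were searched as plain letters on either strand of the 300 bases, so a match is a description of the sequence and not of a bound factor. AP-1, the site of Fos and Jun dimers (TGANTCA), was rarer in members. It was found in 7.2% of members, 15.5% of the other shared regions and 22.8% of the most variable. The order was the same in promoters, at 5.52%, 9.91% and 17.1%, and away from them, at 10.3%, 19.2% and 25.1%. With promoters and other regions together, it was lower in members in all 5 quintiles by signal. The shares went from 5.68% against 13.2% in the weakest to 7.66% against 13.8% in the strongest. With centring within chromosomes the share of members was 8.3%, and within bins of 10 Mb 7.5%.

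ZNF143, a zinc finger activator of promoters (ACTACAANT), was found in 3.6% of members, 1.31% of the others and 0.6% of the most variable. In promoters the shares were 4.91%, 2.08% and 1.05%. By signal, with both kinds of region together, the gap was widest in the strongest quintile, at 5.66% against 2.5%. In the weakest the shares were 0% against 0.840%, and in the middle one 0.781% against 1.00%. The GC box of SP and KLF factors (GGGCGG) was in 56.4% of member promoters, 46.4% of the others and 16.4% of the most variable promoters. Over promoters and other regions together, it was more frequent in members of the strongest quintile (58.8% against 46.8%), near equal in the next (29.9% against 29.1%), and less frequent in the 3 weaker ones, as in the weakest at 4.55% against 6.95%. Its share of all members was 40.1%, and 49.4% with centring within bins of 10 Mb, where NFY went from 15.7% to 22.2%. NRF1 (GCGCANGCG), in 8.59% of member promoters and 8.48% of the others, and ETS (CCGGAAG), in 11% and 11.9%, had like shares in both, and the most variable promoters held them in 1.40% and 6.29%. YY1 (AANATGGCG), CREB (TGACGTCA), USF and MYC (CACGTG) and ZBTB33 (CTCGCGAG) likewise had like shares in member promoters and in the others.

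For sites of factors known from islets and other endodermal tissues, the share of the other regions away from promoters lay within the 95% Wilson interval of the members there, which covers counting error only. The NEUROD E-box (CAGATG) was in 27.0% of members away from promoters against 30.7% of the others, the homeobox core (TAATTA) in 8.33% against 11.4%, the FOX site (TGTTTAC) in 8.62% against 10.4%, GATA factors (AGATAA) in 13.5% against 17.4%, and HNF1 (GTTAATNAT) in 2.3% against 2.82%. MAF (TGCTGAC), at 8.33% and 7.72%, and RFX (GTTGCCNTG), at 2.59% and 2.20%, were near equal. In promoters the NEUROD E-box was in 12.7% of members against 17.9% of the others. GATA was there in 4.45% against 8.18%, and the homeobox core in 2.61% against 4.78%. For these motifs in promoters, the share of the others lay above the interval of the members. For FOX, HNF1, MAF and RFX in promoters it lay within that interval. By signal, with promoters and other regions together, the NEUROD E-box and GATA shares were higher in members of the second quintile. They were 31.5% against 28.1% and 16.3% against 15.7%, and in the other 4 quintiles both were lower in members. CTCF (AGGNGGCAG), a factor of chromatin loops and boundaries, was in 8.91% of members away from promoters, 6.62% of the others and 3.78% of the most variable regions there, and the interval of the members, 6.35% to 12.4%, held the share of the others. NFY (CCAATC) in promoters was at 19.6% in members and 17.8% in the others, and the TATA box (TATAAA) at 7.06% and 7.45%. Motifs overlap, as the C1rl window shows, and shares of different motifs are not independent.

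**Figure D5:**
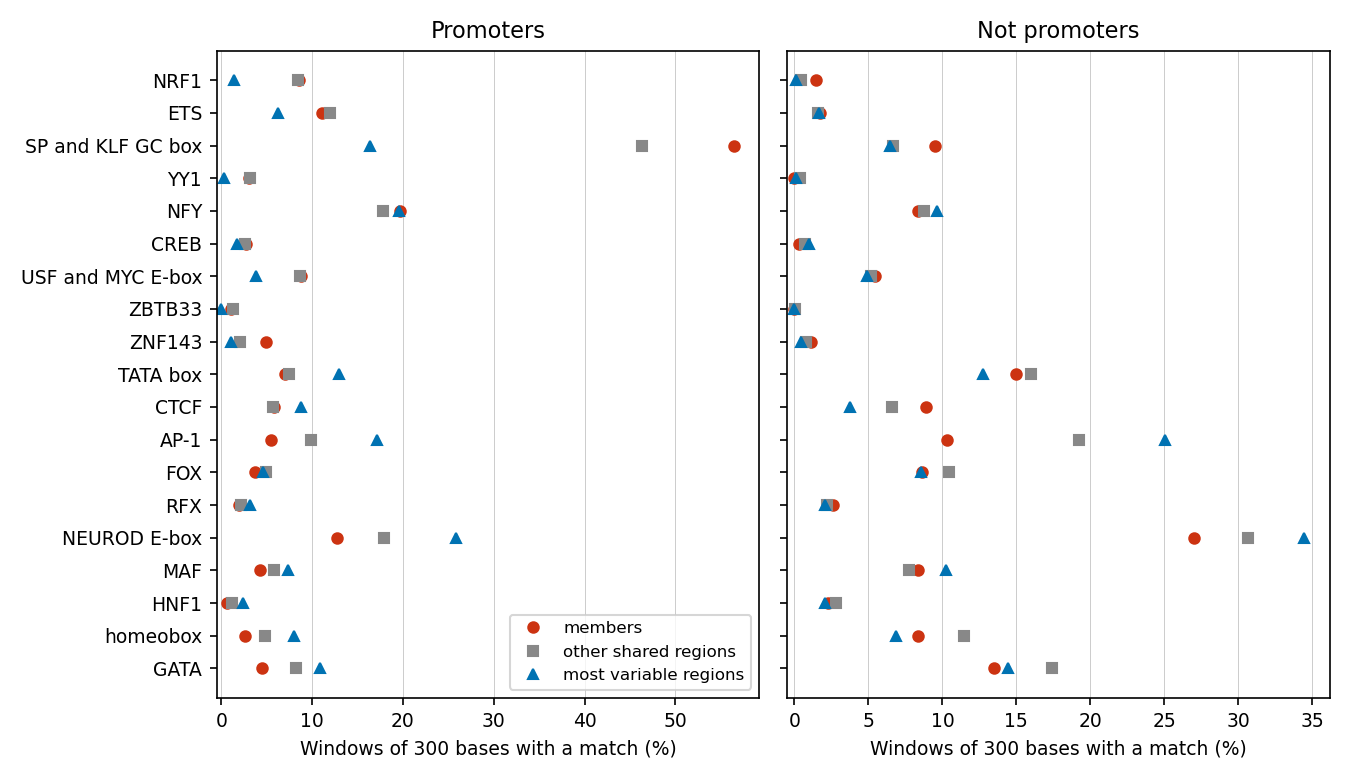
Percent of windows of 300 bases with a match to each of 19 motifs, for promoters (left) and other regions (right), in members (red circles), other shared regions (grey squares, which include the most variable) and the 1000 most variable regions (blue triangles). AP-1 is lowest in members in both panels, 5.52% and 10.3%, and the GC box of promoters is highest in members, 56.4%.

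The position of the summit, another measure that the rule did not use, was also steady in members. The summits of the 16 samples spanned a median of 72 bases in members, 93 in the other shared regions and 150 in the most variable. In regions over 2000 bases wide the medians were 75, 118 and 1005 bases, and in regions of up to 1000 bases 68, 81 and 107. Spans were shorter in the strongest than in the weakest regions, and within the strongest quintile the median was 62 bases in members and 64 in the others. Exceptions were among the 12 smallest ranges: the Etv6 intron spanned 500 bases, the Stam promoter 496 and the Nckap5 promoter 446, so that the signal there came from different summits in different samples.

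The strain lists of the study, in which peaks were kept by how well they repeat between the female and the male, held 85.5% of the members in all 8 strains at an irreproducible discovery rate of at most 0.05. The share was 52.8% in the other shared regions and 26.8% in the most variable. It followed signal closely, since in the strongest quintile it was 100% of members and 99.0% of the others, and in the weakest 0 of 88 members and 0.160% of 8100 others. The strain with fewest members in its list was NZO, at 86.8%, and the one with most was CAST, at 99.9%.

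Gene lists were counted by promoters within 3000 bases of a protein-coding start, beside 4.27% of all 13739 shared protein-coding promoters that were members. The lists were chosen with results of these data known and carry no test. The zinc finger genes named Zfp, a large family of DNA-binding proteins of which many silence transposons, had the most members, 30 of 360 promoters, or 8.33%. In the strongest quintile by signal 28 of 186 Zfp promoters were members, 15.1%, against 8.52% of all protein-coding promoters there. On chromosome 7, where many of these genes lie in clusters, it was 10 of 91, and on the other chromosomes 20 of 269. Over all autosomes the Zfp count was 31, or 8.61%, with centring within chromosomes but 16, or 4.44%, within bins of 10 Mb. It thus depended on the scaling, and 4.44% is near the 4.27% of all protein-coding promoters in the main setting.

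The Zfp promoters with the smallest ranges after Zfp329 were Zfp266, Zfp229, Zfp574 and Zfp213. At the Zfp266 promoter (chr9:20520624-20522281) the scaled signal ran from 2.44 in the B6 female to 4.04 in the B6 male with a median of 3.55. At the Zfp229 promoter (chr17:21733241-21735004) it ran from 1.86 to 3.00, the extremes being the 129 female and the 129 male. At the Zfp574 promoter (chr7:25075896-25078799) it ran from 8.14 to 11.1 and at the Zfp213 promoter (chr17:23563464-23565163) from 5.26 to 6.95. As at Etv6 and Stam, the extremes at Zfp266 and Zfp229 were the pair of a single strain.

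Of 124 promoters of chromatin regulators 9 were members, among them Kmt5c, a histone H4 lysine methyltransferase, with scaled values from 7.75 (PWK male) to 13.0 (129 female), Kmt2b, a histone H3 lysine methyltransferase (3.96 to 5.89), and the acetyltransferase gene Kat2b (2.39 to 3.66). Of 89 promoters of chaperones and folding factors 6 were members, at 4 genes, Dnajc14 (2.87 to 4.16), Dnajc12, Dnajc21 (4.96 to 7.22) and Hspbp1. Dnajc12 had 2 member regions, at scaled values of 4.16 to 5.95 and of 3.31 to 5.04. Vesicle trafficking had 10 of 185, with Snx30 (2.73 to 4.13), Snx19, Rab23 (1.49 to 2.29), Copg2 (2.16 to 3.67) and Rab4b (5.87 to 8.26) the smallest in range. Ubiquitin ligases and deubiquitinases had 7 of 172, led by Usp18 (3.05 to 4.96), which removes the ubiquitin-like protein ISG15. The shares of these lists, in the order given, were 7.26%, 6.74%, 5.41% and 4.07%, beside 4.27% of all protein-coding promoters. With centring within chromosomes and within bins of 10 Mb, chromatin regulators had 6 and 9 members and chaperones 4 and 4. Vesicle trafficking had 11 and 9, and ubiquitin ligases and deubiquitinases 7 and 13.

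Lists of genes that every cell needs had shares around that of all promoters. Cytosolic ribosomal proteins had 5 of 84, at Rpl35, Rpl28, Rps19 and Rpl36, and the Rpl35 promoter (chr2:39004031-39006599) ran from 3.82 in the B6 male to 6.05 in the 129 female. Mitochondrial ribosomal proteins had 2 of 76, Mrps28 and Mrpl15. Splicing factors had 3 of 57, RNA polymerases and Mediator 2 of 59, translation initiation 1 of 51 (Eif2d), the proteasome 1 of 43 (Psmc4), tRNA synthetases 1 of 38 (Sars) and oxidative phosphorylation 1 of 88 (Ndufa3). Their shares, from 1.14% to 5.95%, lay on either side of the 4.27% of all protein-coding promoters, and their median ranges, 0.89 to 1.03, were near the 0.96 of those promoters. The counts moved with the centring: oxidative phosphorylation had 4 members within chromosomes and 5 within bins of 10 Mb, translation initiation 0 and 3, and splicing 1 in both.

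Lists of genes that define islets were short, and their shares lay on either side of the 4.27% of all protein-coding promoters. Of 33 promoters of islet transcription factors 0 were members, at a median range of 1.07, and the same held with both other centrings. Islet hormones and granule proteins had 1 of 12, or 8.33%, at Scg3, a secretogranin of the secretory granule, with scaled values from 4.04 (NZO male) to 6.91 (129 male). Genes of beta cell secretion had 2 of 32, or 6.25%. These were Cpe, the carboxypeptidase that trims proinsulin, from 4.31 (NZO male) to 6.90 (129 male), and Cacna1c, a subunit of the L-type calcium channel, from 1.76 to 2.95. Scg3 was not a member under either other centring. Immediate early genes had 2 of 25, Nr4a2 (4.05 to 6.02) and Nr4a3 (3.15 to 5.65), and the circadian clock 0 of 23, or 3 within bins of 10 Mb. Among markers of other cells the members were 1 of 2 endothelial promoters, both of Esam, 0 of 2 acinar, 0 of 4 duct and 0 of 5 stellate promoters, and no leukocyte promoter was shared.

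Among the strongest members were the promoters of Kyat3, a kynurenine aminotransferase, with scaled values from 10.4 (CAST female) to 16.1 (NOD female), and Tomm40, the import channel of the outer mitochondrial membrane, from 9.69 (WSB female) to 15.6 (AJ male). The widest spanned 25751 bases at Siah2, an E3 ubiquitin ligase, 24103 at Bphl and 19310 at Ppp1r12c, a subunit of myosin phosphatase. In such wide regions the value is that of the highest summit, and at Siah2 the summits of the 16 samples lay up to 8586 bases apart. With regions over 5000 bases left out, 920 of the 1000 members remained.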

How the data were processed

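ATAC-seq was done on 50 islets per sample, from 8 strains with 1 female and 1 male each. Per the methods of the study, adapters were trimmed (cutadapt 2.0), read pairs were aligned to mm10 (Bowtie2 2.3.4.1), and unmapped, mitochondrial and duplicated reads were removed (SAMtools, Picard 2.9.2). A shift of read ends for the transposase cut is not given in the sources used here. MOSAiCS was run by the authors on each sample separately, with peaks kept at a false discovery rate (FDR) of 0.05. The deposited summit signal and mean signal of a peak are not scaled to depth, the read depth of a sample is unknown here, and intervals that need it are not given. The score columns that give the summit offset were deposited by the authors in bases. The deposited strain lists give an irreproducible discovery rate as −log10, pooled over the pair of a strain.

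Reads of all strains had been aligned to the B6 genome. Peaks on chromosomes 1 to 19 were merged where they overlapped or touched, and the highest summit signal of a sample in a region was used. Centred log2(summit signal + 1), with a pseudocount of 1, gave the strain means and the fits of limma 3.58.1 (R 4.3.3), with strain and sex as terms, over 42427 regions, 1487 of them on X. The fit and the rule were tested on simulated data. Same-numbered samples share a sex, so sex was a term of the strain test and strain a block of the sex test. Promoters are regions within 3000 bases of a GENCODE M21 start, and sequence came from GRCm38. Windows were 300 bases at the median summit. The members, gene lists, motifs and rules were chosen with earlier results of these data known. Regions were named by rank: the 12 smallest ranges, the 8 promoters and 6 distal regions with the smallest, the 3 strongest, widest, nearest either side of the limit and with the largest or smallest female-male difference, and up to 5 per list. A region that this rule names is not reported here. Alternatives were a pseudocount of 5, no centring, quantile normalisation, the mean signal, the 60000 strongest peaks, regions of at most 5000 bases, the standard deviation, windows of 200 bases, promoters within 1000 bases, regions in at least 12 samples, and leaving out each sample.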

Additional observations from a re-analysis of the deposited data

Results flagged for a closer look

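Among 34 sets of 8 samples examined, 3 held a sample far from the other 7. The flag has a nominal rate of about 1 in 20. The sets were the 8 females and the 8 males, each for the members' median and spread, the medians of chromosomes 11, 18 and 19, and the 12 smallest-range regions. All 3 flags were at smallest-range regions. The rule chose those regions from these same values, so the nominal rate does not apply to them. At the Stam promoter the B6 female had a centred log2 signal of 1.69, and the other females lay between 1.94 and 2.15. At the C1rl promoter the PWK female had 1.17, below the other females at 1.53 to 1.82, and the PWK male had 1.86, above the other males at 1.56 to 1.68. At both promoters the other sex of the strain lay on the opposite side. This follows from how the regions were chosen, since their strain means had to lie close together.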

How the results depend on the processing

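Which regions were kept depended on the scaling. Of the 1000 members, 901 remained with a pseudocount of 5, 795 with the standard deviation and 762 with the 60000 strongest peaks, but 634 with centring within chromosomes, 455 with quantile normalisation, 237 with centring within bins of 10 Mb, 200 with the mean signal and 0 with no centring. Without 1 sample in turn, 706 to 883 remained. The promoter share, 65.2%, was 85.1% with quantile normalisation, 73.8% with the 60000 strongest peaks, 72.3% within bins of 10 Mb, 59% for starts within 1000 bases (33.3% of all shared regions) and 39.7% with no centring, and 61.6% to 69.6% without 1 sample. With no centring, the mean female-male difference of the members was 0.38 against 0.43 in the other regions, and the median range in the sex not used to choose was 1.74 against 2.26 over all regions. Without 1 sample the mean female-male difference of the members was 0.19 to 0.21, the CpG ratio 0.470 to 0.608, and the median summit span 70 to 74 bases. The CpG ratio of the members was 0.780 with quantile normalisation and 0.642 within bins of 10 Mb, but 0.281 with no centring. With no centring their GC content was 48.7%, and neither value was above that of all shared regions. The sex and strain tests called 0 members under each alternative with all 16 samples that was run for them. For strain this follows from how members were chosen. With no centring the sex test called 0 regions in all, so it could not have called a member. The strain test was not run on regions in at least 12 samples. The sex test as a model of sex alone, with no replicate block, called 0 members and 0 regions in all (9 members at an unadjusted p under 0.05), and so did regions in at least 12 samples (15 members), while the strain model with no replicate block called 0 members and 16330 regions. With windows of 200 bases a member held 1.18 of the 19 motifs on average, against 1.54 with 300 bases. Low summit signals, down to 12 at Myh14, and unknown depth limit what a small range means in weak regions.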
